A study of Homo sapiens with 6 samples.

Results

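The genes described here encode SR proteins, heterogeneous nuclear ribonucleoproteins (hnRNPs) and core proteins of the spliceosome, measured in NGP cells, an established human neuroblastoma line with amplified MYCN. They are the rows of the gene count table whose symbol holds no hyphen and begins with SRSF, HNRNP, SF3A, SF3B, U2AF, SNRP or PRPF, a rule that uses no measured value. It finds 75 of the 19863 rows: 12 SRSF, 25 HNRNP, 13 SF3A, SF3B or U2AF, 12 SNRP and 13 PRPF genes. The readthrough row HNRNPUL2-BSCL2 has a hyphen and is not a member. The cells were exposed for 12 h to OTSSP167 at 60 nM, a kinase inhibitor that the series title names as an inhibitor of CAMKV, or to the same volume of its solvent DMSO. Both groups were grown in medium with 20% serum, come from this single line and hold 3 libraries each. Nothing in the labels tells if replicates are separate cultures, and p-values cover the spread between these libraries, which may be technical. Total counts ran from 36401828 to 57460375 in the OTSSP167 libraries and from 46230392 to 50810126 in the DMSO libraries.

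The spliceosome removes introns from pre-mRNA. Small nuclear RNAs are packed with a ring of Sm proteins (the SNRP genes) into small nuclear ribonucleoproteins (snRNPs). The U2 snRNP, with its SF3A and SF3B proteins and the helper U2AF, marks the branch point and the end of the intron, and the PRPF proteins act in later assembly and catalysis. SR proteins bind exons and mostly favour their inclusion, while many hnRNPs favour skipping. Genes of both families often carry poison exons, whose inclusion sends their own mRNA to nonsense-mediated decay, and counts per gene do not show which form was made. In GENCODE release 29, 12 of the 12 SRSF genes have at least 1 transcript annotated for nonsense-mediated decay, as do 13 of 21 tested HNRNP genes, 7 of 13 SF3A, SF3B and U2AF genes, 4 of 12 SNRP genes and 4 of 13 PRPF genes, against 41.3% of 13808 tested protein-coding genes.

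Levels are given as CPM, the counts of a gene relative to the library total, scaled between libraries by the TMM method, with mean ± SD over n = 3 libraries, and as CPM per kilobase of annotated exon where genes are set against each other. CPM are shares of the counted reads, so fewer transcripts of a gene per cell and more of all others cannot be told apart. A gene was called where its adjusted p in edgeR's quasi-likelihood test, corrected over all 14402 genes tested, was under 0.05. Log2 fold changes are OTSSP167 over DMSO. Of 12 neuroblastoma markers, TH stayed under 1 CPM. Their summed level was 6730 to 6860 CPM in the OTSSP167 libraries and 9940 to 10200 CPM in the DMSO libraries, most of it MYCN. Of 6 immune markers, PTPRC, CD68 and CD3E stayed under 1 CPM, and the summed level of the list was 18.6 to 21.6 CPM with OTSSP167 and 0.899 to 1.53 CPM with DMSO. That sum is mostly CD14, which rose to 14.2 ± 1.73 CPM with OTSSP167, against 0.391 ± 0.122 CPM with DMSO, and CD74, which also rose. SOX10, the defining Schwann cell marker, was at 0 in the 6 libraries. The part of these marker differences in the results below was not tested.

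OTSSP167 left the SR, hnRNP and spliceosome genes with more falls than rises, and the falls were the larger changes. Of 71 members that passed the filter on low counts, 16 rose (22.5%), 25 fell (35.2%) and 30 did not pass the test. Over all tested genes, 23.8% rose and 22.3% fell, so the share of rises lies near the background and the share of falls lies above it. The other 4 members, HNRNPCL1, HNRNPCL2, HNRNPCL3 and HNRNPCL4, had 0 counts in the 6 libraries and were not tested. In a second test against a change of at least 1.5-fold (edgeR's glmTreat), 2 members were higher (2.82%) and 12 lower (16.9%), where all genes gave 10.6% higher and 9.03% lower. The 3 OTSSP167 libraries lay on 1 side of the 3 DMSO libraries in 46 of 71 members (64.8%), against 60.4% of all tested genes.

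Members took many reads per gene, with a median of 171 CPM where that of all tested genes was 21.4 CPM, and calls are more frequent at high levels. Among the 4263 genes of at least 50 CPM, a limit chosen after seeing the data, 29.7% rose and 28.7% fell, and of the 60 members at that level 25% rose and 36.7% fell. The median log2 fold change of the members was -0.09, against 0.01 for all genes. With upper-quartile scaling, which moved the median of all genes to 0.11, the median of the members was 0.01, with 20 rises and 23 falls, so that rises made up 46.5% of the called members there, against 39.0% with TMM.

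**Figure D1:**
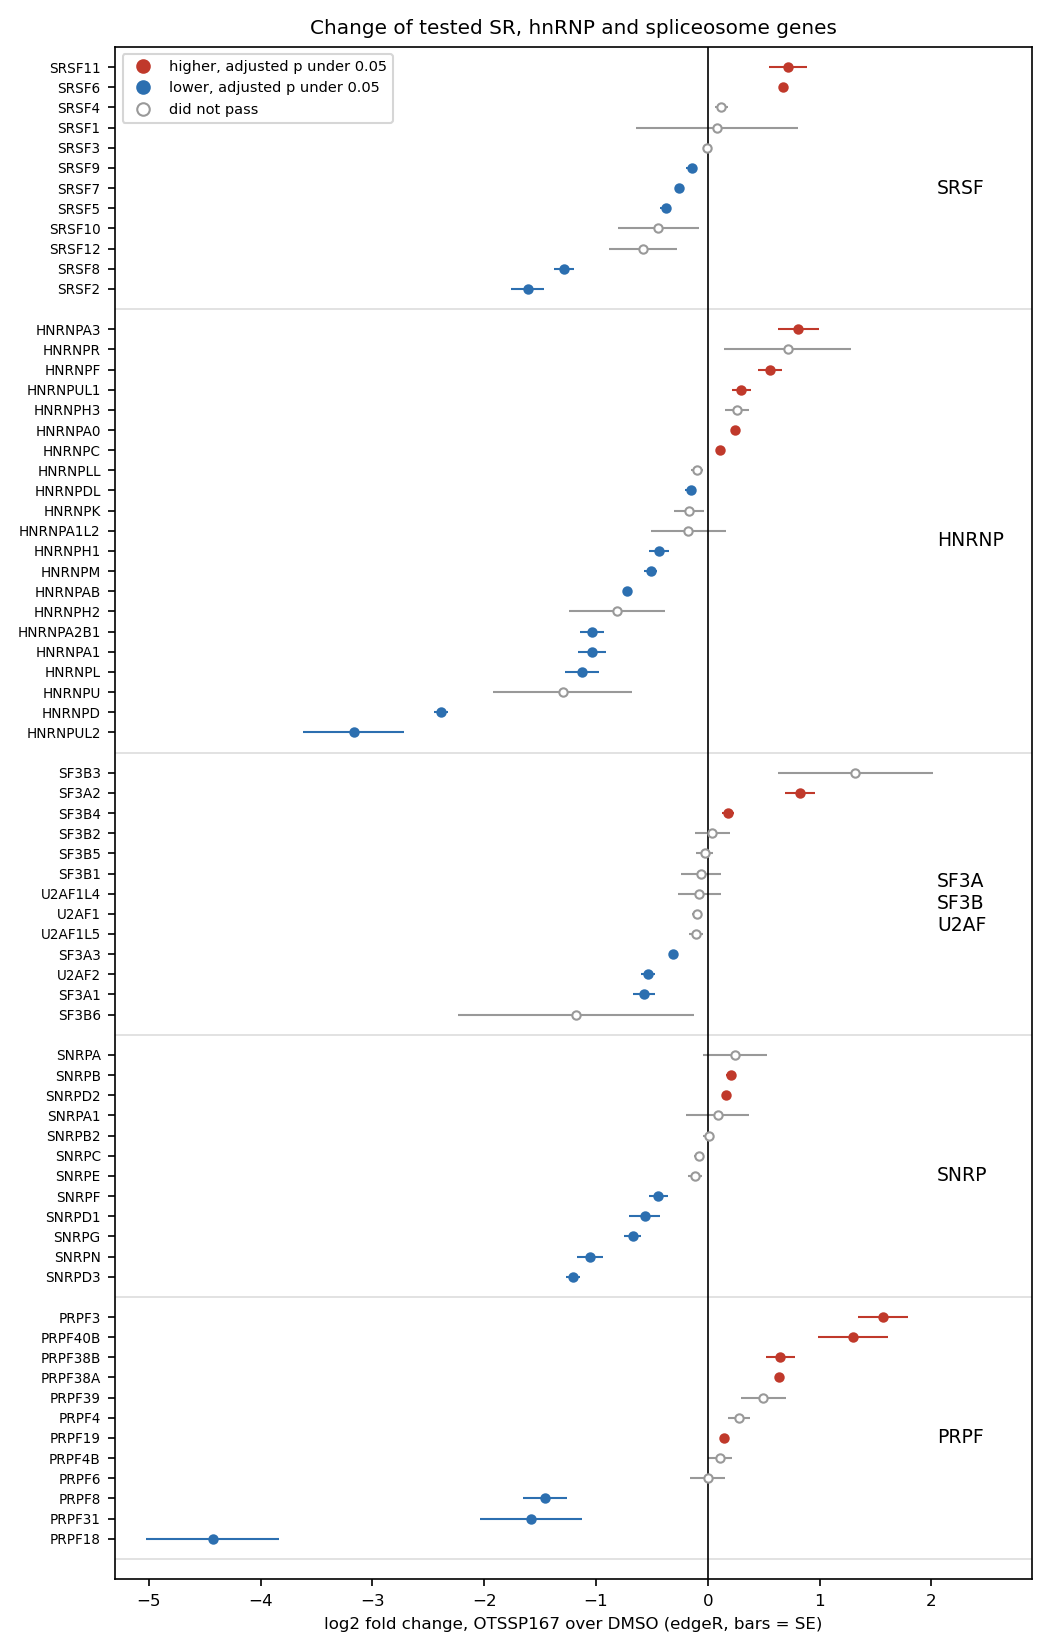
Log2 fold change of the tested members (points, with 1 uncalled member left out, OTSSP167 over DMSO, bars are standard errors), grouped by class on the vertical axis. Filled red and blue points passed edgeR's test upward and downward, and open grey points did not. The widest falls belong to PRPF18 and HNRNPUL2, and the highest called rise to PRPF3.

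Summed over their members, the 5 classes each took a smaller share of the reads with OTSSP167. The HNRNP genes together held 8617, 8674 and 8414 CPM in OTSSP167 replicates 1 to 3, against 11120, 11290 and 10900 CPM in DMSO replicates 1 to 3, a mean that was 22.8% lower. The PRPF sum was 1683 ± 105 CPM with OTSSP167 and 2088 ± 95.3 CPM with DMSO (SD, n = 3), and the SRSF sum 2652 ± 88.6 CPM with OTSSP167 and 3046 ± 26 CPM with DMSO. The SNRP sum averaged 1738 ± 68.4 CPM with OTSSP167 and 1901 ± 53.6 CPM with DMSO, and the sum of the SF3A, SF3B and U2AF genes 2531 ± 148 CPM with OTSSP167 and 2735 ± 37.2 CPM with DMSO. In each of the 5 classes the sums of the groups did not overlap with TMM scaling. The sums were not made with another scaling, so whether the smaller gaps depend on it was not tested. A few genes with many reads carry these sums. The difference of the means, OTSSP167 minus DMSO, was -1030 CPM for HNRNPA1, -675 CPM for PRPF8, -537 CPM for HNRNPD, -483 CPM for HNRNPA2B1 and -425 CPM for SRSF2, while the largest gain was 243 CPM in HNRNPA3.

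**Figure D2:**
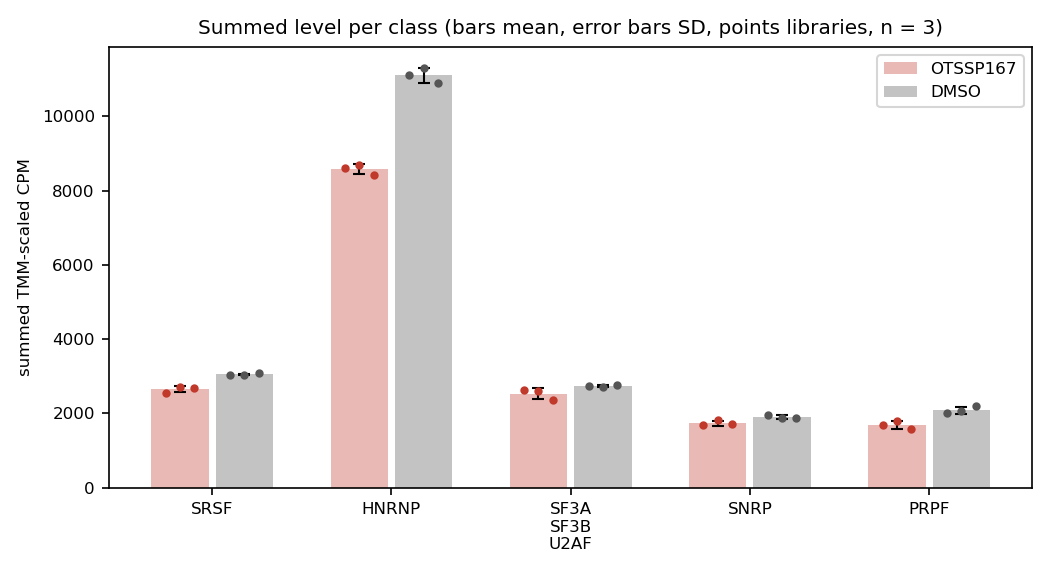
Summed TMM-scaled CPM of each class (vertical axis, starting at 0) in OTSSP167 (red, left) and DMSO (grey, right) libraries. Bars are means, error bars SD and points single libraries (n = 3); the largest gap, 8568 CPM with OTSSP167 against 11110 CPM with DMSO, is in the HNRNP class.

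Among the SR genes, 2 of 12 rose (16.7%), 5 fell (41.7%) and 5 did not pass, against 23.8% and 22.3% of all tested genes. The median log2 fold change of the SR genes was -0.20. SRSF2 (chromosome 17, 76734115 to 76737374), which encodes the SR protein SC35 that binds exonic enhancers, had 173, 254 and 193 CPM in the OTSSP167 libraries and 637, 624 and 635 CPM in the DMSO libraries. The treated libraries lay far under the controls, which hardly differed from each other. SRSF2 had a log2 fold change of -1.61 (SE 0.15, edgeR adjusted p = 0.00076). MIR636 and, on the opposite strand, MFSD11 overlap 36.7% of the exonic bases of SRSF2. MFSD11 rose to 46.8 ± 4.98 CPM with OTSSP167, against 33.8 ± 0.593 CPM with DMSO. The sum of the pair was 254 ± 38.1 CPM with OTSSP167 and 666 ± 6.85 CPM with DMSO, and the groups did not overlap in that sum either. SRSF8, an expressed copy of SRSF2 that arose by retrotransposition, had 30.9, 29.8 and 30.7 CPM with OTSSP167 and 66.8, 76.4 and 79.1 CPM with DMSO. It fell by 1.28 (SE 0.09, edgeR adjusted p = 0.000258), and reads shared with SRSF2 make the values of this pair uncertain.

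The SR genes that rose were SRSF6 and SRSF11. SRSF6, a regulator of alternative exons, had 467, 485 and 472 CPM in OTSSP167 libraries and 295, 289 and 310 CPM in DMSO libraries, a log2 fold change of 0.67 (SE 0.04, edgeR adjusted p = 0.000115). It was 1 of the 2 members higher beyond 1.5-fold, a call that it kept without DMSO replicate 3 and lost without any other single library. That call was also lost when the fit was blocked on replicate number. SRSF11 had 101, 102 and 136 CPM with OTSSP167 and 66.3, 80.1 and 59.5 CPM with DMSO (log2 fold change 0.72 ± 0.17 SE, adjusted p = 0.0192 in edgeR). Its call was lost with that block and without DMSO replicate 1 or 3, with an adjusted p of 0.000549 to 0.0724 over its alternatives. The SRSF5 and SRSF7 genes fell by 0.38 and 0.26. SRSF9 was lower by 0.15 at an edgeR adjusted p of 0.0466, and it passed in 3 of 14 alternatives (adjusted p from 0.0264 to 0.498), of the single libraries only without DMSO replicate 3.

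SRSF3, the SR gene that took the most reads and the one with the smallest SR protein, differed little. It had 688, 704 and 693 CPM in the OTSSP167 libraries and 695, 717 and 684 CPM in the DMSO libraries (log2 fold change -0.01 ± 0.02 SE, adjusted p = 0.803 in edgeR). The groups overlapped, and the sign turned to 0.09 with upper-quartile scaling, where SRSF3 passed (adjusted p = 0.0271, between 0.0271 and 0.958 over its alternatives). SRSF1, the founding member of the family, scattered within its groups instead, with 32.4, 130 and 33.2 CPM with OTSSP167 and 105, 44.6 and 35.2 CPM with DMSO (log2 fold change 0.08 ± 0.73 SE, adjusted p = 0.935 in edgeR). Single libraries of both groups stood far above their fellows. Annotated genes on both strands overlap 60.7% of the exonic bases of SRSF1. SRSF4, SRSF10 and SRSF12 did not pass. Per kilobase of exon, SRSF2 was the highest SR gene with DMSO at 209 CPM, ahead of SRSF3 at 98.2 CPM. With OTSSP167 the order was SRSF6 at 103 CPM, SRSF3 at 97.6 CPM and SRSF2 at 68.5 CPM.

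**Figure D3:**
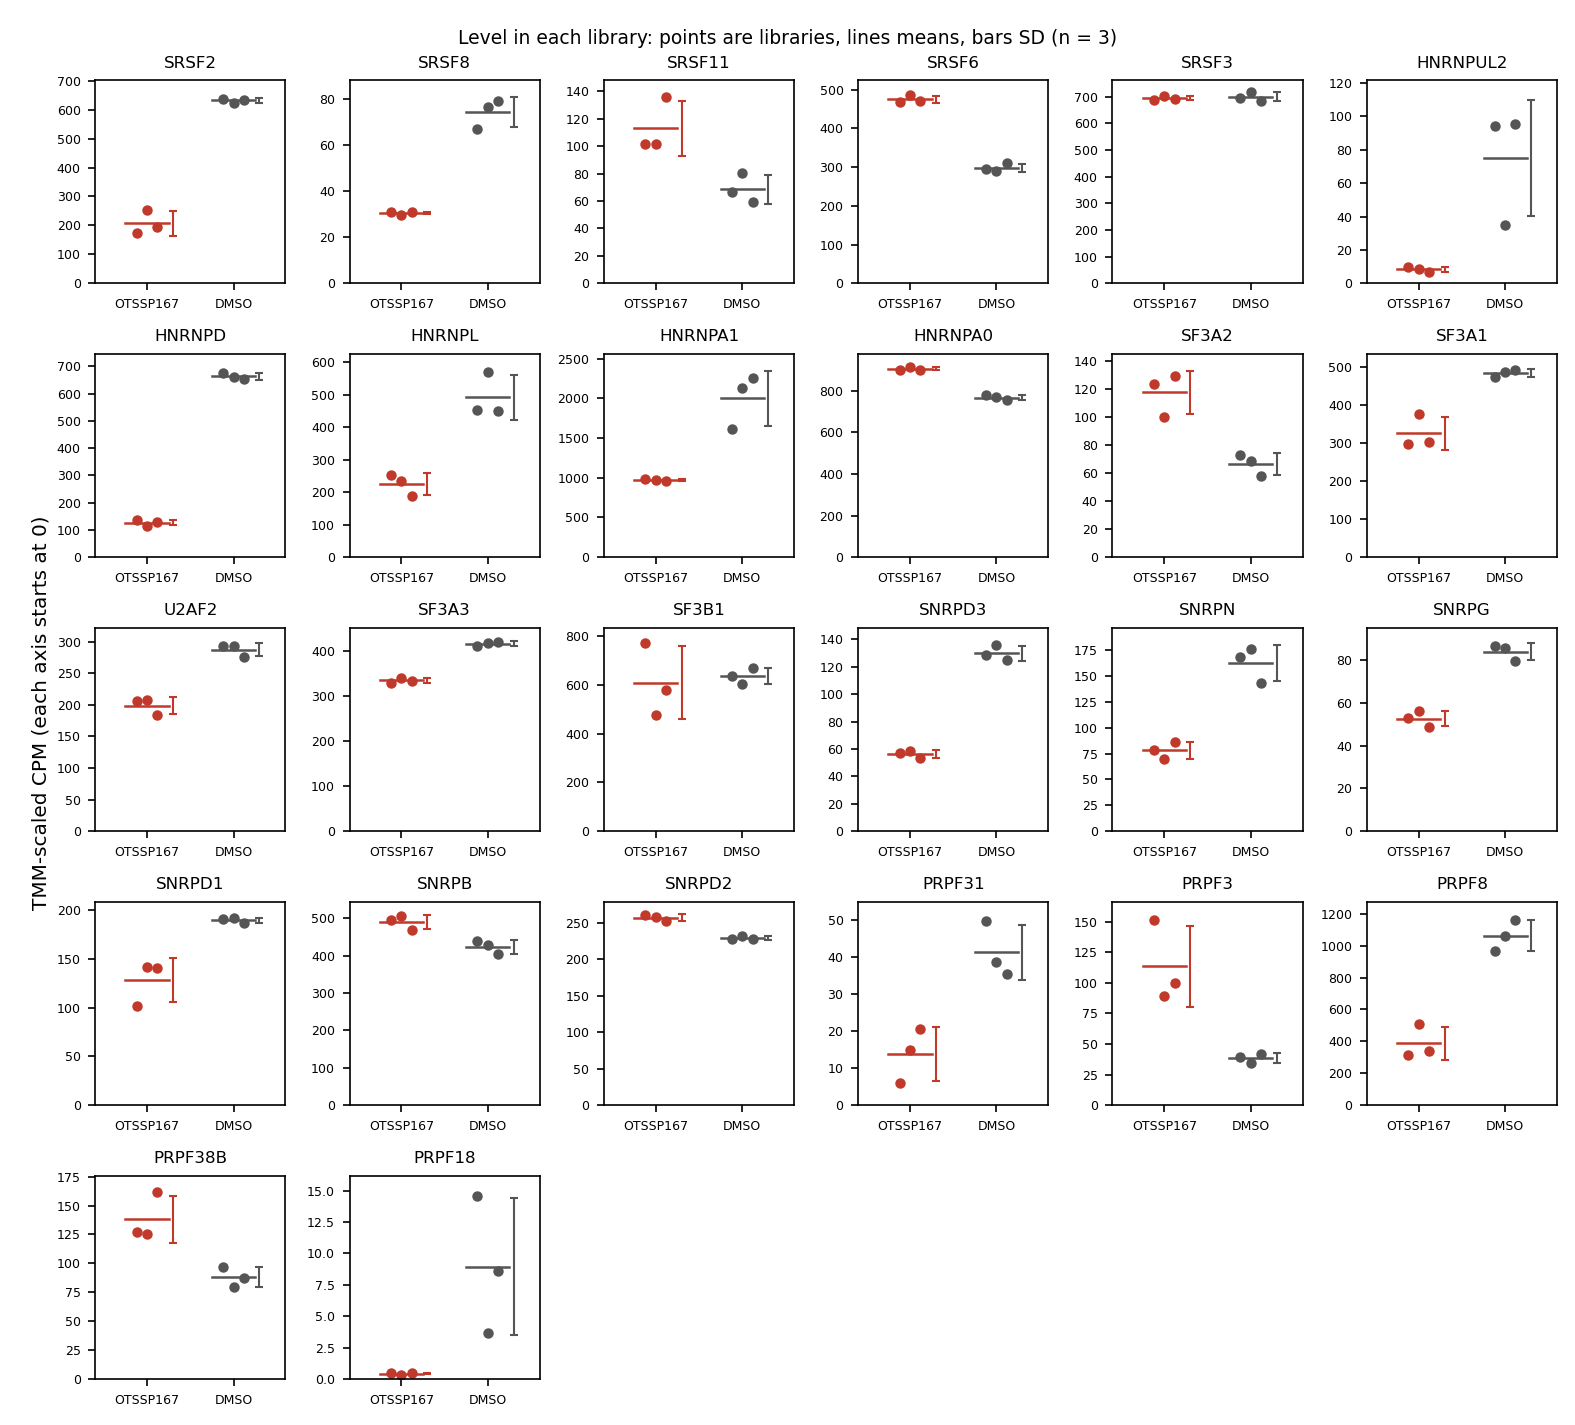
TMM-scaled CPM in each library for the 26 members chosen by rule, OTSSP167 (red) left of DMSO (grey), each axis starting at 0. Points are libraries, lines means and bars SD (n = 3); SRSF3 averages 694.6 CPM with OTSSP167 and 698.6 CPM with DMSO, and HNRNPD 127 CPM with OTSSP167 and 664 CPM with DMSO.

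The HNRNP genes held the largest falls by amount, with 5 of 21 tested members higher (23.8%), 9 lower (42.9%) and 7 not passing. Over all tested genes 23.8% rose and 22.3% fell, so the share of rises is that of the background. Of the 12 members lower beyond 1.5-fold, 6 belong to this class: HNRNPA1, HNRNPA2B1, HNRNPAB, HNRNPD, HNRNPL and HNRNPUL2. HNRNPD (chromosome 4, 82352498 to 82374503) encodes AUF1, which binds AU-rich elements and takes part in mRNA decay. It had 137, 116 and 128 CPM in OTSSP167 libraries and 676, 663 and 653 CPM in DMSO libraries. The groups were 5.23-fold apart in the fit, with little spread in either, and HNRNPD fell by 2.39 (SE 0.07, edgeR adjusted p = 2.62e-05). Its neighbour on the same strand, HNRNPDL (chromosome 4, 82422564 to 82430408), was lower by 0.15 at an edgeR adjusted p of 0.0467. That call held in 4 of 14 alternatives (adjusted p from 0.0314 to 0.41) and was lost without DMSO replicate 3 or any single OTSSP167 library.

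HNRNPA1, a shuttling repressor of exon inclusion, had 990, 974 and 964 CPM in OTSSP167 libraries and 1611, 2132 and 2261 CPM in DMSO libraries. The treated libraries lay close together while the controls spread. HNRNPA1 fell by 1.04 (SE 0.13, edgeR adjusted p = 0.00215). Its call beyond 1.5-fold was lost without DMSO replicate 2, without any single OTSSP167 library, and with blocking on replicate number. HNRNPA1 has many processed pseudogenes that can share its reads. The related HNRNPA2B1 had 510, 459 and 418 CPM with OTSSP167 and 935, 1054 and 847 CPM with DMSO, and fell by 1.03. HNRNPAB fell by 0.72 (SE 0.03, edgeR adjusted p = 3.62e-05). Other A-type genes went the opposite way. HNRNPA0, encoded without introns, had 900, 913 and 900 CPM with OTSSP167 and 777, 769 and 753 CPM with DMSO, a small and even rise of 0.24 (SE 0.02, edgeR adjusted p = 0.000416). HNRNPA3 had 500, 673 and 524 CPM with OTSSP167 and 386, 324 and 258 CPM with DMSO, a rise of 0.81 (edgeR adjusted p = 0.0172) whose call was lost when DMSO replicate 2 was left out (adjusted p = 0.0561, between 0.000335 and 0.0561 over its alternatives). In sum, 2 of 8 A, B and D type genes rose, 5 fell and HNRNPA1L2, a near copy of HNRNPA1, did not pass.

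HNRNPL, which binds CA-rich RNA, had 254, 234 and 189 CPM in OTSSP167 libraries and 452, 571 and 451 CPM in DMSO libraries, and fell by 1.12 (SE 0.15, edgeR adjusted p = 0.00268). It was not lower beyond 1.5-fold without OTSSP167 replicate 2. Its paralog HNRNPLL did not pass, at 108 ± 1.95 CPM with OTSSP167 and 115 ± 5.70 CPM with DMSO. HNRNPUL2 (chromosome 11, 62712630 to 62727472) had 9.70, 8.66 and 6.61 CPM with OTSSP167 and 94.3, 34.7 and 95.7 CPM with DMSO. It fell by 3.17 (SE 0.45, edgeR adjusted p = 0.00349), although DMSO replicate 2 stood far below the other controls. The readthrough row HNRNPUL2-BSCL2 shares 44.1% of the exonic bases of HNRNPUL2 and averaged 38.0 ± 2.9 CPM with OTSSP167 and 23.2 ± 7.06 CPM with DMSO. The 2 rows together had 44.4, 48.8 and 45.7 CPM with OTSSP167 and 109, 62.02 and 123 CPM with DMSO. The groups remained apart in that sum, with a smaller gap. HNRNPM fell by 0.51 and HNRNPH1, which binds runs of G, by 0.44.

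HNRNPF, which also binds runs of G, rose to 391 ± 8.15 CPM with OTSSP167, against 266 ± 37.2 CPM with DMSO (log2 fold change 0.56 ± 0.11 SE, adjusted p = 0.00932 in edgeR). HNRNPUL1 was higher by 0.30 and HNRNPC, the abundant binder of uridine tracts, by 0.11. The HNRNPC call was lost without OTSSP167 replicate 1 or 2 or DMSO replicate 3. The HNRNPUL1 call was lost without OTSSP167 replicate 1 or 2 or any DMSO library, and with blocking on replicate number. Over their alternatives, adjusted p ran from 0.0012 to 0.0679 for HNRNPC and from 0.00677 to 0.108 for HNRNPUL1. HNRNPK, HNRNPR and HNRNPU did not pass, and libraries of HNRNPR and HNRNPU ranged widely. HNRNPU, a nuclear scaffold protein gene, had 270, 141 and 124 CPM with OTSSP167 and 833, 225 and 258 CPM with DMSO (log2 fold change -1.298 ± 0.62 SE, adjusted p = 0.145 in edgeR). The high value of DMSO replicate 1 carries much of that estimate, which was -0.44 without it. Its adjusted p ran from 0.0348 to 0.408 over its alternatives and was under the threshold in 1 of 14. HNRNPH2 and HNRNPH3 did not pass either.

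NGP cells carry an amplified MYCN, whose protein binds the E-box CACGTG with its partner MAX, so promoters were searched for these letters, which read the same on both strands. The 250 bases before the start annotated in RefSeq on GRCh38.p14 were searched. There the E-box stood in 7 of 62 tested members with a promoter in the table (11.3%) and in 8.92% of 10882 tested genes. The called members that hold it are shown with up to 30 bases on either side, in lower case with the E-box in capitals, 5′ to 3′ on the strand of the gene. They lie at chr4:82373992-82374048 (minus strand) for HNRNPD, chr4:82430346-82430411 (minus) for HNRNPDL, chr19:8444903-8444968 (plus) for HNRNPM and chr2:177212693-177212758 (plus) for HNRNPA3. The HNRNPD window is cut at the annotated start.
HNRNPD: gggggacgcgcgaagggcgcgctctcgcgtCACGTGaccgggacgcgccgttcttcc
HNRNPDL: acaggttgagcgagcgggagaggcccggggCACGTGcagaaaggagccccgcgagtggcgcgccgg
HNRNPM: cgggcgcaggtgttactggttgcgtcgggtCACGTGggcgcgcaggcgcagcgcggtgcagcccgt
HNRNPA3: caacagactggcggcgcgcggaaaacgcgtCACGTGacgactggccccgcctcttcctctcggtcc

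The first 3 of these genes fell and HNRNPA3 rose. The E-box stood in 1 of 15 members that rose, 3 of 22 that fell and 3 of 25 that did not pass. MYCN itself had 4495 ± 17.8 CPM with OTSSP167 and 7544 ± 99.9 CPM with DMSO, a log2 fold change of -0.75. A link between MYCN, the E-box and these changes was not tested. The ETS-type letters CCGGAAG, searched on both strands, stood in 21 of 62 members (33.9%) and in 14.5% of tested genes. Their share was alike in members that rose (5 of 15), fell (7 of 22) and did not pass (9 of 25). CCAAT, on both strands, stood in 41.9% of members and 34.8% of tested genes. It stood in 9 of 15 members that rose, 8 of 22 that fell and 9 of 25 that did not pass, a difference that was not tested. Overlaps between the motifs were not removed, and a match is a description of the letters, not of binding.

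In the U2 snRNP and U2AF class, 2 of 13 genes rose (15.4%), 3 fell (23.1%) and 8 did not pass, against 23.8% and 22.3% of all tested genes. In that class 0 passed the test beyond 1.5-fold, where 10.6% of all genes were higher and 9.03% lower. The median log2 fold change of the class was -0.08, and 0.03 with upper-quartile scaling. The 3 genes of the SF3A complex, which joins the U2 snRNP to the branch region, were called, in different directions, where 46.1% of all genes were called. The other 2 calls of the class were U2AF2 and SF3B4, and a difference between its complexes was not tested. SF3A1 had 298, 375 and 303 CPM in OTSSP167 libraries and 473, 487 and 491 CPM in DMSO libraries, and fell by 0.57 (SE 0.10, edgeR adjusted p = 0.00613). SF3A3 had 331, 341 and 335 CPM with OTSSP167 and 411, 418 and 422 CPM with DMSO, a fall of 0.31 (SE 0.02, edgeR adjusted p = 0.000381) that is large beside its narrow spread. SF3A2 had 124, 100 and 129 CPM with OTSSP167 and 73.2, 68.5 and 57.7 CPM with DMSO, and rose by 0.83 (SE 0.14, edgeR adjusted p = 0.00572). The antisense neighbour PLEKHJ1, which shares 12.7% of the exonic bases of SF3A2, fell by 0.49.

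U2AF2, the large U2AF subunit that reads the polypyrimidine tract, had 206, 207 and 183 CPM in OTSSP167 libraries and 294, 294 and 275 CPM in DMSO libraries, and fell by 0.53 (SE 0.06, edgeR adjusted p = 0.00151). Its partner U2AF1, which reads the AG at the intron end, did not pass. The assembly holds U2AF1 and the near-identical copy U2AF1L5 on chromosome 21, and the rows took similar numbers of reads. U2AF1 averaged 128 ± 5.37 CPM with OTSSP167 and 137 ± 2.75 CPM with DMSO, and U2AF1L5 114 ± 8.13 CPM with OTSSP167 and 123 ± 2.21 CPM with DMSO. Their sum was 242 ± 13.5 CPM with OTSSP167 and 260 ± 4.8 CPM with DMSO, and those sums did not overlap. Of 6 SF3B genes, SF3B4 was called, higher by 0.18 (edgeR adjusted p = 0.0407), and passed in 7 of 14 alternatives (adjusted p from 0.00644 to 0.123), not without OTSSP167 replicate 2 or 3 or any single DMSO library. SF3B1, the branch point binding subunit, had 771, 475 and 580 CPM with OTSSP167 and 634, 604 and 668 CPM with DMSO, and the groups overlapped (log2 fold change -0.06 ± 0.18 SE, adjusted p = 0.8 in edgeR). SF3B3 had 176, 274 and 35.8 CPM with OTSSP167 and 65.0, 55.8 and 73.5 CPM with DMSO (log2 fold change 1.32 ± 0.69 SE, adjusted p = 0.177 in edgeR). The low OTSSP167 replicate 3 stood apart, and without it SF3B3 passed (adjusted p = 0.00641, between 0.00641 and 0.453 over its alternatives). SF3B2, SF3B5, SF3B6 and U2AF1L4 did not pass.

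Among the SNRP genes, 2 of 12 rose (16.7%) and 5 fell (41.7%), against 23.8% and 22.3% of all tested genes. The called SNRP genes all encode Sm ring proteins. Of the 8 genes for proteins of the Sm ring, which is shared by the U1, U2, U4 and U5 snRNPs, 2 rose, 5 fell and SNRPE did not pass. Of the 4 genes for proteins particular to U1 or U2 (SNRPA, SNRPC, SNRPA1 and SNRPB2), 0 passed in edgeR, 0 had an unadjusted p under 0.05, and 0 passed in any of the 14 alternatives, DESeq2 and limma-voom included. This grouping by role was made after the values were seen, and the difference between the groups was not tested. Of the ring genes 87.5% were called, against 46.1% of all tested genes. Other U1 and U2 genes were called: SNRNP70 of U1 rose by 1.26 (edgeR adjusted p = 3.53e-05). The 3 SF3A genes and 1 of 6 SF3B genes, which belong to U2, were called as well. SNRPD3, which pairs with SmB in the ring, had 56.9, 58.7 and 53.0 CPM in OTSSP167 libraries and 129, 136 and 125 CPM in DMSO libraries. It fell by 1.21 (SE 0.07, edgeR adjusted p = 0.000123). Of its exonic bases, 24.6% are shared with GGT1 and GUCD1, which both rose, to 19.2 ± 1.92 and 81.2 ± 3.52 CPM with OTSSP167, against 1.25 ± 0.307 and 62.6 ± 5.85 CPM with DMSO. Whether reads of SNRPD3 were counted to them is not known.

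SNRPG had 52.8, 56.2 and 48.9 CPM in OTSSP167 libraries and 86.4, 85.8 and 79.5 CPM in DMSO libraries, and fell by 0.67 (SE 0.08, edgeR adjusted p = 0.00161). SNRPD1 had 102, 142 and 140 CPM with OTSSP167 and 191, 191 and 187 CPM with DMSO, a fall of 0.57 (edgeR adjusted p = 0.02) whose call needed DMSO replicates 1 and 2 (adjusted p from 0.00225 to 0.0555 over its alternatives). SNRPF fell by 0.44. The proteins of the ring are present in equal numbers, but their transcripts did not move alike. SNRPB, which encodes SmB, had 495, 505 and 468 CPM with OTSSP167 and 438, 428 and 404 CPM with DMSO, a rise of 0.21 (SE 0.04, edgeR adjusted p = 0.0138). SNRPD2 had 261, 258 and 252 CPM with OTSSP167 and 227, 232 and 228 CPM with DMSO, a rise of 0.16 (SE 0.03, edgeR adjusted p = 0.00711). Its libraries hardly spread and the groups did not overlap.

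SNRPN (chromosome 15, 24823637 to 24978723), the imprinted and brain-enriched gene for SmN, a close relative of SmB, fell where SNRPB rose. It had 78.9, 70.1 and 86.5 CPM in OTSSP167 libraries and 169, 177 and 144 CPM in DMSO libraries (log2 fold change -1.05 ± 0.11 SE, adjusted p = 0.00132 in edgeR). SNRPN shares 33.6% of its exonic bases with SNURF, SNHG14 and another transcript, and SNURF stood at 2.78 ± 2.35 CPM with OTSSP167 and 2.1 ± 0.172 CPM with DMSO. Per kilobase of exon, SNRPB led the class at 383 CPM with OTSSP167 and 331 CPM with DMSO, and SNRPN measured 23.0 CPM with OTSSP167 and 47.7 CPM with DMSO. Sm genes have pseudogenes that can share their reads. The median of the SNRP class was -0.10, and 0.01 with upper-quartile scaling.

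Of the 5 classes, PRPF alone had more rises than falls with TMM scaling, 5 (38.5%) against 3 (23.1%) of 13 members. All tested genes gave 23.8% and 22.3%. The PRPF median log2 fold change was 0.28 while the mean was -0.13, and the difference from the other classes was not tested. The PRPF sum was lower all the same, because PRPF8, the gene of the class with the most reads, fell. PRPF8 (chromosome 17, 1650629 to 1684882), the large U5 protein at the catalytic centre, had 314, 506 and 342 CPM in OTSSP167 libraries and 968, 1058 and 1160 CPM in DMSO libraries. Even the highest treated library lay far under the lowest control, and PRPF8 fell by 1.46 (SE 0.20, edgeR adjusted p = 0.00307). PRPF3 (chromosome 1, 150321476 to 150353195), a U4/U6 protein, had 151, 89.3 and 100 CPM with OTSSP167 and 39.5, 34.2 and 41.6 CPM with DMSO. It rose by 1.56 (SE 0.22, edgeR adjusted p = 0.00353) and was the other member higher beyond 1.5-fold, except without DMSO replicate 2. PRPF31, which binds the U4 particle beside PRPF3, had 6.05, 14.8 and 20.4 CPM with OTSSP167 and 49.5, 38.4 and 35.4 CPM with DMSO. It fell by 1.58 (SE 0.46, edgeR adjusted p = 0.0367), and the call was lost without OTSSP167 replicate 2 or without any single DMSO library (adjusted p from 0.00246 to 0.0979). The PRPF31 call was also lost with blocking on replicate number. On its other strand, annotated genes overlap 32% of its exonic bases. Within the tri-snRNP, then, PRPF3 rose, PRPF8 and PRPF31 fell, and PRPF4 and PRPF6 did not pass.

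PRPF18, a factor of the second catalytic step, had 0.459, 0.351 and 0.437 CPM in OTSSP167 libraries and 14.6, 3.64 and 8.62 CPM in DMSO libraries. The treated libraries held 18, 20 and 16 counts, so their level rests on few reads. PRPF18 fell by 4.43 (SE 0.60, edgeR adjusted p = 0.00281), the widest change of any member, on a control level that itself ranged 4.01-fold. Other annotated genes overlap 48.5% of its exonic bases. PRPF38A and PRPF38B, which enter with the tri-snRNP, both rose. PRPF38A had 285, 293 and 276 CPM with OTSSP167 and 183, 186 and 182 CPM with DMSO (log2 fold change 0.63 ± 0.04 SE, adjusted p = 0.000127 in edgeR), and PRPF38B had 127, 125 and 162 CPM with OTSSP167 and 96.9, 79.6 and 87.7 CPM with DMSO (log2 fold change 0.65 ± 0.13 SE, adjusted p = 0.0115 in edgeR). PRPF19, the ubiquitin ligase of the PRPF19 complex, was higher by 0.15, a call lost without OTSSP167 replicate 3 or DMSO replicate 1 or 2. PRPF40B, a U1-associated protein gene of low level, was higher by 1.299 at 6.87 ± 0.643 CPM with OTSSP167 and 2.79 ± 1.04 CPM with DMSO. Its call was lost with blocking on replicate number and without OTSSP167 replicate 1 or 3 or DMSO replicate 1, with adjusted p from 0.000248 to 0.0667. Without DMSO replicate 1 the class had 5 called genes in place of 8. PRPF4, PRPF4B, PRPF6 and PRPF39 did not pass, and PRPF4 (edgeR adjusted p = 0.0602) passed in 6 of 14 alternatives (0.0139 to 0.155).

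Per kilobase of annotated exon, the order of the highest members differed between the groups. With OTSSP167 it was SNRPB at 383 CPM, HNRNPA1 at 192 CPM, HNRNPC at 190 CPM and HNRNPAB at 172 CPM. With DMSO it was HNRNPA1 at 393 CPM, SNRPB at 331 CPM, HNRNPAB at 284 CPM and SRSF2 at 209 CPM. The lengths join all annotated exons of a gene, so genes with many annotated isoforms are understated. Libraries of a group ranged over 2-fold in 14 of 71 members and in 5081 of 14402 tested genes. Of those 14 members 4 were called (28.6%), and of the other 57 members 37 (64.9%). Over all tested genes these shares were 24.6% and 57.8%, near those of the members.

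Other genes of the splicing pathway, taken from lists that do not overlap the members, were counted in the same fit. The U1, U5 and tri-snRNP proteins with other names mostly rose: 8 of 15 rose and 2 fell, with a median log2 fold change of 0.53. SNRNP70, the U1-70K protein gene, rose to 325 ± 7.81 CPM with OTSSP167, against 135 ± 5.35 CPM with DMSO (log2 fold change 1.26 ± 0.04 SE, adjusted p = 3.53e-05 in edgeR), and SNRNP27 fell by 1.71. Of 25 PRPF19 complex and catalytic-step genes, 9 rose and 2 fell, with a median of 0.07. XAB2, a member of the intron-binding complex, rose by 1.12 and SLU7 was lower by 0.33, a call that held in 7 of 14 alternatives (adjusted p from 0.00218 to 0.0858) and was lost without OTSSP167 replicate 1 or 2 or any single DMSO library. Of 20 exon junction and SR-related genes, 6 rose, among them PNN by 0.62, and 4 fell, among them ACIN1 by 1.24. Over all tested genes 23.8% rose and 22.3% fell, and the exon junction list, at 30% and 20%, lies near that. Differences between lists were not tested.

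Of 16 branch point and U2-associated genes 2 rose (12.5%), 1 fell (6.25%) and 13 did not pass. The shares in this paragraph stand beside 23.8% of all tested genes that rose and 22.3% that fell. CHERP rose by 0.77, and DDX46, the helicase that loads the U2 snRNP, fell to 24.4 ± 4.59 CPM with OTSSP167, against 212 ± 8.36 CPM with DMSO (log2 fold change -3.12 ± 0.15 SE, adjusted p = 0.000104 in edgeR). Of 18 hnRNP-like genes without the prefix, 3 rose (16.7%) and 7 fell (38.9%), a split in the same direction as the HNRNP genes, with a median of -0.20. NONO, a paraspeckle protein gene, rose by 0.86 and KHDRBS1, which encodes Sam68, fell by 0.27. Of 17 genes of the SMN complex and Sm ring assembly, 4 rose (23.5%) and 6 fell (35.3%), with a median of -0.29. GEMIN5, which recognises snRNAs for the complex, fell by 0.84 (SE 0.04, edgeR adjusted p = 6.67e-05) and PHAX, an snRNA export adaptor, rose by 0.56. The LSM list holds 9 genes, the ring genes LSM1 to LSM8 and NAA38, which is not a ring gene and did not pass. Of the 9, 1 rose (11.1%) and 3 fell (33.3%), with LSM2 higher by 0.40 and LSM7 lower by 0.47. Of 24 tested neural and tissue-regulated splicing factors 4 rose (16.7%) and 3 fell (12.5%), with NOVA2 higher by 0.65 and QKI lower by 0.37. Of 12 kinases and phosphatases that act on SR proteins 5 rose (41.7%) and 3 fell (25%). CLK4, a kinase of SR proteins, rose to 50.2 ± 4.02 CPM with OTSSP167, against 15.2 ± 1.62 CPM with DMSO, and SRPK1 fell by 0.26.

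**Figure D4:**
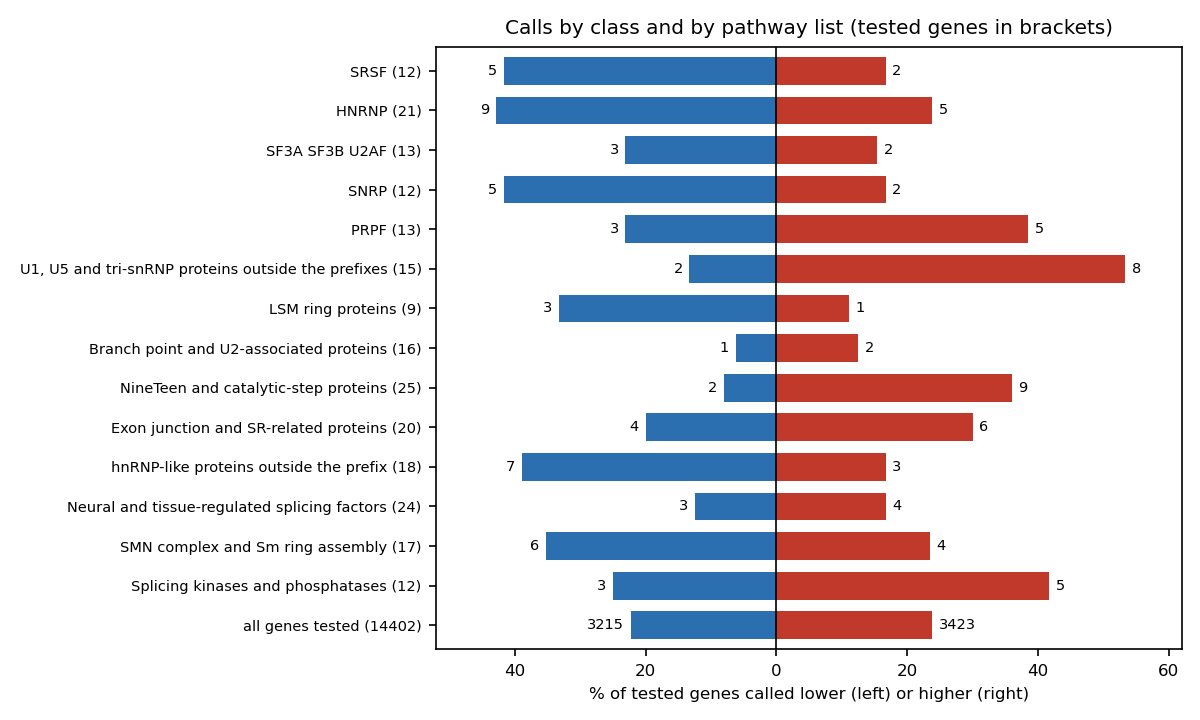
Percent of tested genes called lower (blue, left) or higher (red, right) with OTSSP167 for the 5 classes, 9 further lists of splicing genes and all tested genes, with the number of called genes at each bar. HNRNP, SRSF and SNRP genes reach 42.9%, 41.7% and 41.7% lower, against 22.3% of all genes.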

How the data were processed

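RNA-seq libraries were made from TRIzol-extracted total RNA with a SMARTER mRNA kit, per the labels' protocols. The authors deposited whole-number counts per gene symbol for 6 libraries. Per the submitters' processing notes, FastQC 0.11.2, HISAT2 2.1.0, StringTie 1.3.5 and GRCh38.p13 were used. Annotation, strand setting and filters of the counting are not given in sources used here, so reads of overlapping, antisense or copied genes may be divided in an unknown way.

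Each count column was assigned through its group name and replicate number, with 0 columns left over. Of 58 symbols in more than 1 row, 0 are members. Single values of 1 member and 1 marker gene are not reported here, though both are in the counts. Counts were fitted with edgeR 4.0.16 in R 4.3.3 (filterByExpr, TMM, robust quasi-likelihood F test of treatment, glmTreat at 1.5-fold), with Benjamini-Hochberg adjustment over the 14402 genes tested. The standard error is the log2 fold change divided by the square root of F. The test was checked on simulated data. Replicate pairs differed by a chi-square of 82.8 to 98.8 per gene, where sampling noise alone gives about 1, so no library was a copy. Averaged over genes, counting error at 36401828 to 57460375 counts per library is small beside this spread. That need not hold for genes with few counts, such as PRPF18 in the OTSSP167 libraries. Loci and exon lengths are from GENCODE 29 on GRCh38, matched by symbol for the 75 members.

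Members and lists were chosen with earlier results of these data known. Values per library are given for the 4 called members of largest change with at least 10 CPM in each class, the member of highest CPM, the called member of smallest p in the direction fewer members took, and further members chosen after their values were seen. In each splicing list, though not in the marker lists, the called gene of smallest p in each direction is named. Alternatives were DESeq2 1.42.0, limma-voom (limma 3.58.1), 3 scalings, 2 filters, a fold threshold of 2, blocking on replicate number, and leaving out single libraries.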

Additional observations from a re-analysis of the deposited data

How the results depend on the processing

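Of 41 called members, 30 were called in each alternative that tested them and 11 lost the call in at least 1, and 0 turned direction. Of 30 members that did not pass, 9 passed in at least 1 alternative. The labels do not say whether the replicate numbers pair the samples. Deviations of same-numbered libraries from their group means correlated at 0.022 to 0.032 across genes, and those of other pairs at -0.021 to -0.007. Each library thus correlated best with its own number, a hint from the data and not from the design. Correlations this low cannot decide whether the samples are paired. With the replicate block, 4887 genes, 12 higher members and 23 lower members were called, in place of 6638, 16 and 25, and HNRNPU passed (log2 fold change -1.12, adjusted p = 0.0348). Over the other alternatives these counts ran from 5536 (at least 1 CPM in the 6 libraries) to 8000 (DESeq2), from 11 (without DMSO replicate 1) to 20 (upper-quartile scaling) and from 22 to 25. Beyond 1.5-fold, 1 higher member was called with the replicate block, 1 to 2 without single libraries, and 0 at a fold of 2, where 6 were lower in place of 12. Called PRPF genes numbered 5 to 7 without single libraries.

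The SRSF median of -0.20 became -0.18 with DESeq2 or its size factors, -0.10 with upper-quartile scaling and -0.14 with at least 1 CPM in the 6 libraries, and ran from -0.26 to -0.19 without single libraries. The HNRNP median of -0.18 became -0.075 with upper-quartile scaling and ran from -0.46 (without DMSO replicate 3) to -0.14. The median of the SF3A, SF3B and U2AF genes was 0.026 with upper-quartile scaling and -0.014 with the 1 CPM filter, that of SNRP genes 0.005 with upper-quartile scaling, and that of PRPF genes 0.45 with the 1 CPM filter and 0.15 to 0.36 without single libraries. Members that did not pass changed sign as follows. SRSF3 was 0.016 with DESeq2 and with its size factors, 0.093 with upper-quartile scaling, 0.053 with the 1 CPM filter and -0.039 to 0.002 without single libraries. SRSF1 was -0.078 with the replicate block and ran from -0.91 to 0.70 without single libraries. SF3B1 was 0.039 and U2AF1 0.004 with upper-quartile scaling, and SF3B1 ran from -0.27 to 0.087 without single libraries. The causes were not tested. Precision is set by the spread between 3 libraries per group.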
